A study of Homo sapiens with 8 samples.

Results

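The genes described here are 7 classic glucocorticoid-induced genes, TSC22D3, SGK1, DUSP1, ZBTB16, GLUL, ANXA1 and ERRFI1. They were taken by symbol from the platform annotation, and 7 of 7 were found, with 1 transcript cluster each of the 17881 clusters on the array. A transcript cluster is the array's unit for a gene, summarised over its exon probes, and values are log2 expression levels. The data are 8 Affymetrix Human Exon arrays, 2 in each of 4 groups, of cells labelled RS4;11, an acute lymphoblastic leukemia line of B-cell precursor origin. All cells carried an shRNA vector, either a control or one directed at BTG1. Exposure lasted 8 h, with the synthetic glucocorticoid prednisolone or with its vehicle. The 4 groups were thus control shRNA with vehicle, control shRNA with prednisolone, BTG1 shRNA with vehicle and BTG1 shRNA with prednisolone. The labels state neither the prednisolone dose nor whether a transduced line was 1 clone. The design text calls the experiment duplicate without naming cultures, so a p-value here reflects array-to-array spread that may be technical. The question behind the design is how BTG1, an antiproliferative coregulator, bears on the response to a glucocorticoid and on the receptor's induction of its own gene.

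Glucocorticoids enter the cell and bind the glucocorticoid receptor, encoded by NR3C1, which moves to the nucleus and binds response elements in DNA, often far from the start site. In lymphoid cells the receptor raises genes that restrain inflammatory signalling and growth, and prolonged exposure kills many lymphoid leukemia cells. The 7 genes take different places in this programme. TSC22D3 encodes GILZ, a leucine zipper protein that restrains NF-kB and AP-1. ANXA1 encodes annexin A1, an anti-inflammatory phospholipid-binding protein. DUSP1 encodes a phosphatase that switches off MAP kinases, and ERRFI1 encodes an inhibitor of the epidermal growth factor receptor. SGK1 encodes a serine/threonine kinase related to AKT. ZBTB16 encodes the transcriptional repressor PLZF, and GLUL encodes glutamine synthetase.

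RefSeq promoter windows, 250 bases before to 50 after a start site on GRCh38.p14, were matched by symbol for 6 of the 7 genes (all but ZBTB16), 12 windows in all. The stretch before the start site is shown for the 3 genes that rose with prednisolone in control cells, TSC22D3, SGK1 and GLUL, and for DUSP1, which was not called, so that their proximal elements can be set side by side. All run 5′ to 3′ on the gene's strand, which is the minus strand in each case. Capitals mark exact matches, on either strand, to the palindromic glucocorticoid response element (AGAACA and TGTTCT, 3 bases apart), the single receptor hexamer AGAACA, the cyclic AMP response element TGACGTCA, its shorter core TGACGT, the TATA box TATAAA and the CCAAT box CCAAT. The hexamer lies within the palindrome, and TGACGT within TGACGTCA.
TSC22D3: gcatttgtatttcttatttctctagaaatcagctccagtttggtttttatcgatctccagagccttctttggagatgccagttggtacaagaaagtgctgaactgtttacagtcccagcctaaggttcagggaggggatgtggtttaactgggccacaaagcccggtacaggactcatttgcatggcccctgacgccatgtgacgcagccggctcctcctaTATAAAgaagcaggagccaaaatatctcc
SGK1: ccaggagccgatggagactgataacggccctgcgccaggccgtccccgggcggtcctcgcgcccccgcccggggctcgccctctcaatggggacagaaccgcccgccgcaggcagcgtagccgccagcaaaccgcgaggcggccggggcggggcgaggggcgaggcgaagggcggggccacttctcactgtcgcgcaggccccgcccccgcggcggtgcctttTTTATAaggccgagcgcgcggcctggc
GLUL: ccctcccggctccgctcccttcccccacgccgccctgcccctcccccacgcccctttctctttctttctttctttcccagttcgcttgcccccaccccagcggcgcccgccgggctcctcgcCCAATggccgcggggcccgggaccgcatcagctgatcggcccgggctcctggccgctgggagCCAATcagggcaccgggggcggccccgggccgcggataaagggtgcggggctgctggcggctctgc
DUSP1: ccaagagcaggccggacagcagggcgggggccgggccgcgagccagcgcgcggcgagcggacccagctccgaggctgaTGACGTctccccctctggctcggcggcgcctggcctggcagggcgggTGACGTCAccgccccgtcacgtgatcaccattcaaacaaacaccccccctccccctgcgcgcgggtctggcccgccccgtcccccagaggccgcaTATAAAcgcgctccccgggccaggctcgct
These stretches are chrX:107717063-107717312 for TSC22D3, chr6:134174867-134175116 for SGK1, chr1:182391791-182392040 for GLUL and chr5:172771196-172771445 for DUSP1. TSC22D3, SGK1 and GLUL have several start sites. Of each gene's windows, the one shown is the only one with a TATA box for TSC22D3, with both a TATA box and GC boxes for SGK1, and with CCAAT boxes for GLUL, whose window holds GC boxes too.

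The palindromic glucocorticoid response element matched 0 of the 12 windows, and 0.00285% of all 35116 RefSeq windows of the same length held it. The hexamer matched 1 of the 12, an upstream SGK1 window, 5 bases after its start site, and 14.8% of all windows held one. The TATA box matched 6 of the 12 windows, in 4 genes (TSC22D3, SGK1, DUSP1 and ANXA1), and 11.5% of all windows. The CCAAT box matched 4 windows in 4 genes, against 34.6% of all windows. The GC box GGGCGG, not capitalised in the sequences, matched 8 windows in 5 genes, against 45% of all windows. The full cyclic AMP response element occurred in 1 window, that of DUSP1, 125 bases before its start site, and in 1.85% of all windows. A further TGACGT lies 172 bases before the same start site, and 7.98% of all windows held this core. A match is only a run of letters, and its absence from these windows says nothing about binding elsewhere.

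The arrays labelled BTG1 shRNA went against the cell line's label. Of 13 measured B-lineage markers, 12 were lower there under vehicle, with a median log2 difference of -4.95, and 11 of 12 T-lineage markers were higher, with a median of 4.77. Over all clusters 6.21% were called lower and 8.46% higher in this comparison (1111 and 1512 clusters). That balance turned when the second control vehicle array was dropped, to 3476 lower and 2482 higher. On each control array the B-lineage markers had a median percentile of 86.8 to 96.6, against 34.4 to 37.1 on the arrays labelled BTG1 shRNA. Summed on the linear scale, they came to 7.62e+03 to 9.74e+03 on control arrays and 320 to 344 on the others. T-lineage markers summed to 466 to 884 on control arrays and 1.06e+04 to 1.3e+04 on the others. Myeloid markers (9 measured) and erythroid with platelet markers (7 measured) had median percentiles of at most 39.2 in every group, and 10 stromal and epithelial markers at most 50.9. The shRNA and this lineage difference coincide on every array and cannot be told apart. In bulk RNA, fewer cells of a type and less RNA per cell cannot be told apart either. The cluster of BTG1, which also carries the symbol LINC01619, stood at 9.35 ± 0.01 and 10.61 ± 0.13 (SD, n = 2) on control arrays with vehicle and prednisolone, and at 7.29 ± 0.19 and 7.97 ± 0.24 (SD, n = 2) on those labelled BTG1 shRNA, lower in the arm labelled with its knockdown. The receptor gene NR3C1 was at 9.72 and 10.24 on the control vehicle arrays and at 7.77 and 7.12 on the vehicle arrays labelled BTG1 shRNA. With prednisolone it was at 10.63 and 10.90 on the control arrays and at 7.25 on both others. The NR3C1 difference with prednisolone in control cells was 0.79 (SE 0.28, limma adjusted p = 0.269) and was not called. Nor was its difference of prednisolone effects between the arms (-0.99, SE 0.39, limma adjusted p = 0.532). Levels were least spread on the first control vehicle array (interquartile range 2.95, and 3.39 to 3.8 elsewhere). In each group the first array had the higher median and the smaller interquartile range of the 2.

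In control shRNA cells, prednisolone raised 3 of the 7 genes, SGK1, TSC22D3 and GLUL, and 0 fell. Over all clusters 0.928% were called higher in this comparison and 0.587% lower (limma, Benjamini-Hochberg adjusted p below 0.05). The median difference of the 7 was 0.74, against -0.16 over all clusters, which quantile normalization moved to -0.05. The same 3 genes, and none of the other 4, were higher by over 2-fold, the selection named in the series' design, against 3.86% of all clusters. In the same comparison 2 of the 13 B-lineage and 1 of the 12 T-lineage markers fell, and their part in the result was not tested. The other 4 genes, ZBTB16, ERRFI1, DUSP1 and ANXA1, did not pass, with differences between -0.22 and 0.74.

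**Figure D1:**
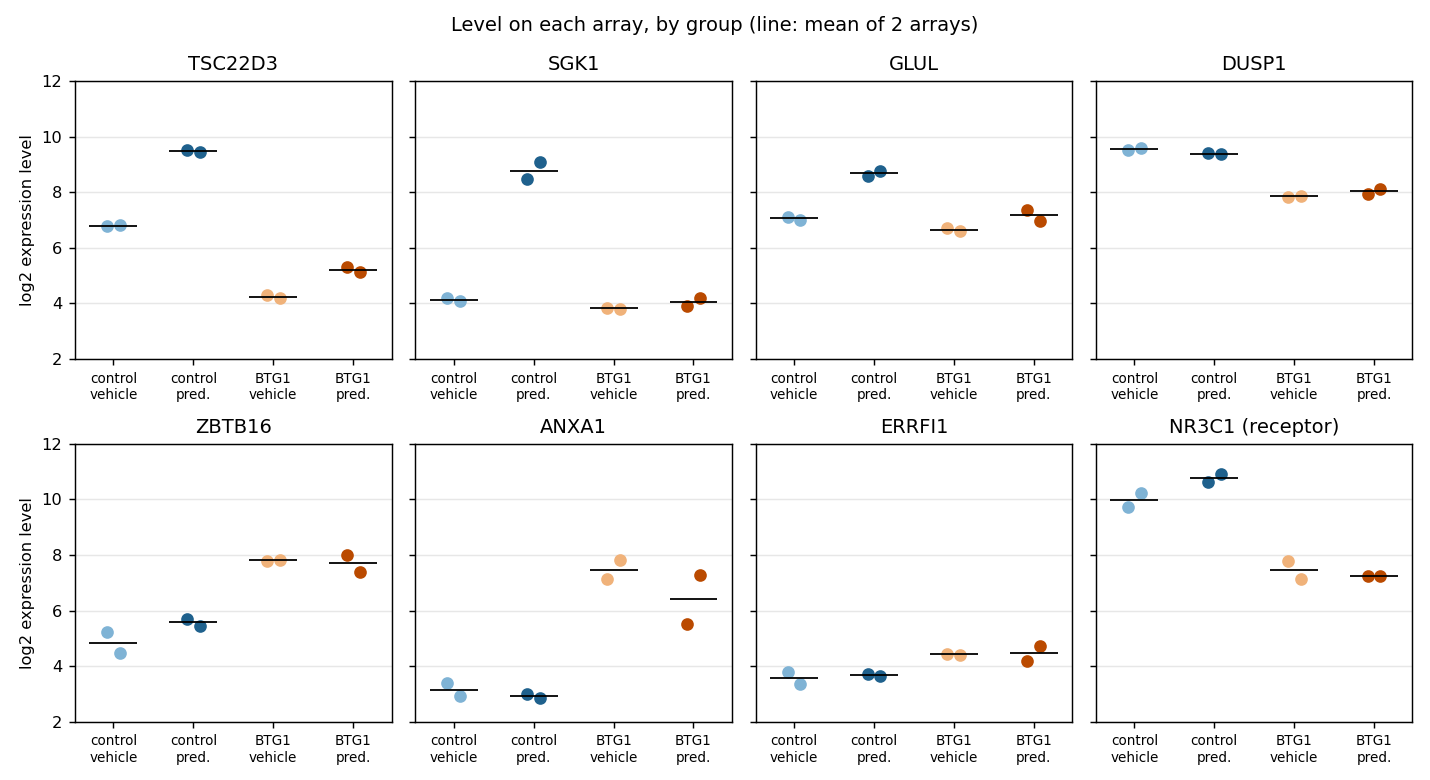
Log2 expression level (y axis) of each of the 7 genes and of the receptor gene NR3C1 on every array, by group (x axis, where BTG1 means arrays labelled BTG1 shRNA and pred. means prednisolone). Points are arrays and lines are means of 2 arrays. SGK1 stands apart on the 2 control prednisolone arrays, at 8.48 and 9.07, while ANXA1 and ZBTB16 are higher on all 4 arrays labelled BTG1 shRNA.

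TSC22D3, the source of GILZ, was at 6.79 and 6.81 on the vehicle arrays of control cells and at 9.51 and 9.43 on their prednisolone arrays. The 2 groups lie far apart and their arrays differ by at most 0.06 (SD) within a group. The difference was 2.67 (SE 0.17, 95% interval 2.28 to 3.06), 6.37-fold, with a limma adjusted p of 0.00118. It ranked 32nd of all clusters by size and 7th by p-value. With the control arrays fitted alone the adjusted p was 0.03, the highest over all settings (0.000506 to 0.03).

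SGK1, the AKT-related kinase, was at 4.20 and 4.07 without the drug and at 8.48 and 9.07 with it. The vehicle values lay at percentiles 28.2 to 32.7 of their arrays and the prednisolone values at percentiles 90.5 to 93.7. The rise of 4.64 (SE 0.23, 95% interval 4.09 to 5.18, limma adjusted p = 0.000567) was the largest of all 17881 clusters in this fit. Since the level above background at vehicle is unknown, no fold is given. Fitted on the control arrays alone, the adjusted p was 0.0162 (range over settings 3.89e-05 to 0.0162).

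GLUL, which makes glutamine from glutamate, stood at 7.11 and 7.0 in control cells given vehicle and at 8.59 and 8.76 in those given prednisolone. It rose by 1.62 (SE 0.20, 95% interval 1.17 to 2.08), 3.07-fold, with a limma adjusted p of 0.0104. The groups do not overlap, but the call was lost with the control arrays fitted alone (adjusted p = 0.0822) and when the second control prednisolone array was dropped (adjusted p = 0.121), against a lowest value of 0.00625 over the settings.

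DUSP1, the MAP kinase phosphatase, was already bright without the drug. Its values were 9.53 and 9.59 with vehicle and 9.41 and 9.38 with prednisolone in control cells, at or above the 95.5th percentile of all 4. The difference of -0.17 (SE 0.16, adjusted p = 0.548) lies close to the median of -0.16 over all clusters. Its 95% interval, -0.55 to 0.22, lies within a 2-fold change in either direction at 8 h. The prednisolone arrays do lie below the vehicle arrays, as was the case for 26.4% of all clusters.

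ZBTB16, the source of the repressor PLZF, was at 5.22 and 4.46 on the vehicle arrays and at 5.70 and 5.45 on the prednisolone arrays of control cells. The groups do not overlap, as in this direction for 15.3% of all clusters, but the vehicle arrays differ from each other by as much as the groups do. The difference was 0.74 (SE 0.30, 95% interval 0.03 to 1.44, adjusted p = 0.337).

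ANXA1 and ERRFI1 were dim in control cells. ANXA1 read 3.38 and 2.92 with vehicle and 3.01 and 2.85 with prednisolone, at or below the 13.5th percentile. Its groups overlap, and the difference of -0.22 (SE 0.52, adjusted p = 0.787) has a wide 95% interval of -1.44 to 1.00. ERRFI1 read 3.80 and 3.35 with vehicle and 3.71 and 3.64 with prednisolone, at or below the 26.8th percentile. Its groups overlap too, with a difference of 0.10 (SE 0.24, 95% interval -0.45 to 0.65, adjusted p = 0.788). At such levels a change near background may not show on the array.

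On the arrays labelled BTG1 shRNA, 0 of the 7 genes and 0 of all 17881 clusters passed limma's adjusted threshold, which is 0% called. At an unadjusted p below 0.05, 2 of the 7 genes and 186 clusters (1.04%) passed, and limma with a trended and robust spread also called 0 clusters. The 2 genes were TSC22D3 and GLUL, both named because of this count. The median difference of the 7 was 0.19, against 0.03 over all clusters.

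TSC22D3 read 4.29 and 4.18 on the vehicle arrays labelled BTG1 shRNA and 5.31 and 5.14 on the prednisolone arrays. The groups do not overlap, as in this direction for 18% of all clusters. The difference of 0.99 (SE 0.17, 95% interval 0.60 to 1.38, adjusted p = 1) ranked 5th of all clusters by p-value and 26th by size. Both prednisolone values remained below the control vehicle values of 6.79 and 6.81. The vehicle values labelled BTG1 shRNA lay at percentiles 35.9 to 36.7 of their arrays. The level of TSC22D3 above background there is unknown, which leaves the size of its difference uncertain. GLUL read 6.71 and 6.60 with vehicle and 7.37 and 6.98 with prednisolone, again without overlap, a difference of 0.52 (SE 0.20, 95% interval 0.07 to 0.98, adjusted p = 1).

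SGK1 read 3.85 and 3.81 with vehicle and 3.91 and 4.20 with prednisolone on these arrays, all at or below the 35.6th percentile. The difference was 0.22 (SE 0.23, 95% interval -0.33 to 0.77). DUSP1 read 7.84 and 7.86 with vehicle and 7.95 and 8.12 with prednisolone, a difference of 0.19 (SE 0.16, 95% interval -0.20 to 0.57). For DUSP1 the interval ends below a 2-fold rise, while for SGK1, whose level above background is unknown, it does not bound the change of the transcript.

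ZBTB16 read 7.79 and 7.80 with vehicle and 8.01 and 7.40 with prednisolone, so the prednisolone arrays enclose the vehicle ones. Its difference of -0.09 (SE 0.30, 95% interval -0.80 to 0.62) was 0.01 after quantile normalization. ERRFI1 read 4.44 and 4.40 with vehicle and 4.20 and 4.72 with prednisolone, a difference of 0.04 (SE 0.24, -0.07 after quantile normalization). ANXA1 was the most variable of the 7 here, with 7.14 and 7.80 with vehicle and 5.53 and 7.28 with prednisolone. Its difference of -1.06 (SE 0.52, 95% interval -2.28 to 0.16) rests on the first prednisolone array: it was -0.18 without that array and -1.94 without the second.

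**Figure D2:**
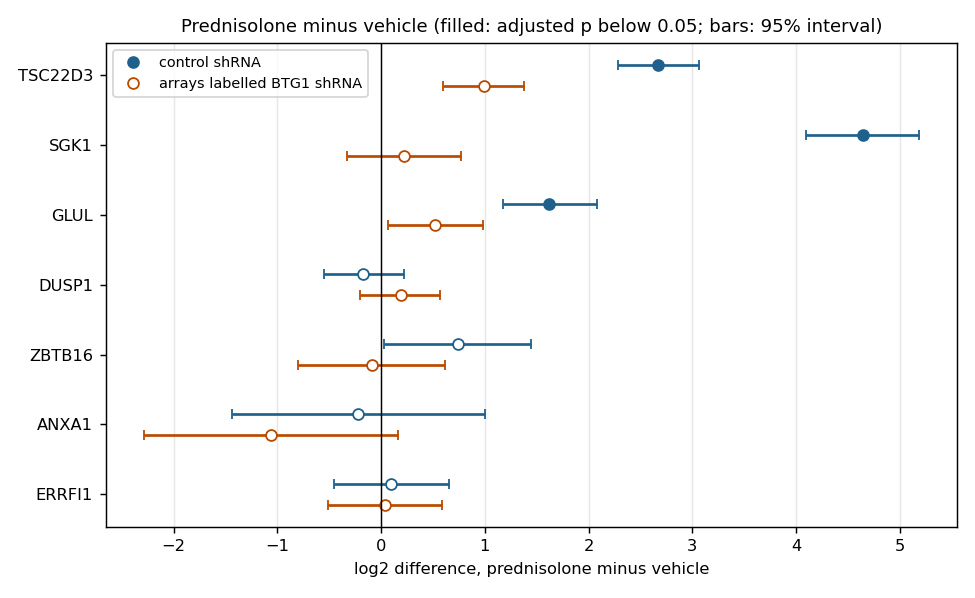
Log2 difference between prednisolone and vehicle (x axis) for the 7 genes (y axis), in control shRNA cells and on the arrays labelled BTG1 shRNA. Points are estimates from 2 arrays against 2, bars are 95% intervals and filled points passed the adjusted threshold; filled points are the control values of SGK1 (4.64), TSC22D3 (2.67) and GLUL (1.62).

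The difference of the prednisolone effects was tested directly, as the effect on arrays labelled BTG1 shRNA minus that in control cells. Of the 7 genes, SGK1 alone passed, at -4.42 (SE 0.33, limma adjusted p = 0.00862, range 0.00265 to 0.0823 over the alternative settings), against 0.134% of all clusters called in either direction. The 3 genes that rose in control cells all had smaller differences on the other arrays, which choosing them by that rise favours. For TSC22D3 the difference of effects was -1.68 (SE 0.24, 95% interval -2.24 to -1.13, adjusted p = 0.0705), and it passed after quantile normalization (adjusted p = 0.0458, range over settings 0.0323 to 0.392). For GLUL it was -1.10 (SE 0.28, 95% interval -1.74 to -0.45, adjusted p = 0.289). The other 4 genes lay between -0.84 and 0.36. The sizes for SGK1 and TSC22D3 are uncertain. For TSC22D3 the level above background on the vehicle arrays labelled BTG1 shRNA is unknown. For SGK1 it is unknown on the control vehicle arrays and on all 4 arrays labelled BTG1 shRNA. The SGK1 call ended when the second control prednisolone array or any 1 of the 4 arrays labelled BTG1 shRNA was left out (adjusted p = 0.0589 to 0.0823), while the estimate stayed between -4.56 and -4.12. In those 5 fits 0 clusters of the whole table passed.

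Between the shRNA arms the 7 genes split in 2 directions, in arrays that also differ in lineage markers and in NR3C1. Under vehicle 4 of the 7 genes were called, 2 lower (TSC22D3 and DUSP1) and 2 higher (ANXA1 and ZBTB16) on the arrays labelled BTG1 shRNA, against 14.7% of all clusters called (8.46% higher and 6.21% lower). Under prednisolone 6 were called, with SGK1 and GLUL added to the lower ones, against 17.5% of all clusters (10% higher and 7.51% lower). Each of the 7 genes had arrays that did not overlap between the arms, 4 lower and 3 higher under either treatment. Over all clusters 34.3% were lower and 24.5% higher without overlap under vehicle, and 21.5% and 28.4% under prednisolone. The comparisons within and between arms share arrays, so their values are set side by side and are not independent. The part of lineage, of the receptor level and of the shRNA in these differences cannot be told apart.

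For TSC22D3 the arms differed by -2.57 without the drug (SE 0.17, limma adjusted p = 6.51e-05) and by -4.25 with it (SE 0.17, limma adjusted p = 9.88e-06). Its 4 groups follow one another without overlap, with control prednisolone highest and BTG1 vehicle lowest. In that lowest group its level above background is unknown, which leaves the size of the vehicle difference uncertain. DUSP1 differed by -1.71 (SE 0.16, adjusted p = 0.000389) and -1.36 (SE 0.16, adjusted p = 0.0011), which is 3.28-fold and 2.56-fold. DUSP1 thus separated the arms without separating vehicle from prednisolone beyond the threshold in either of them.

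SGK1 differed by -0.30 (SE 0.23, 95% interval -0.85 to 0.24, adjusted p = 0.384) under vehicle and by -4.72 (SE 0.23, adjusted p = 1.98e-05) under prednisolone. Its control vehicle and BTG1 prednisolone arrays overlap, so that the 2 control prednisolone arrays stand alone above the other 6. On those 6 the level of SGK1 above background is unknown, so the sizes of both differences are uncertain. GLUL differed by -0.40 (SE 0.20, adjusted p = 0.222) and by -1.50 (SE 0.20, adjusted p = 0.00151). For GLUL, too, the BTG1 prednisolone and control vehicle arrays overlap.

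ANXA1 differed by 4.32 (SE 0.52, adjusted p = 0.00123) under vehicle and by 3.48 (SE 0.52, adjusted p = 0.00312) under prednisolone. Its level above background on the control arrays is unknown, which leaves the size uncertain. ZBTB16 differed by 2.96 (SE 0.30, adjusted p = 0.000537) and by 2.13 (SE 0.30, adjusted p = 0.00235), with no overlap between the arms. T-lineage markers moved in the same direction as these 2 genes, with 11 of 12 called higher under each treatment. Their part in the result was not tested.

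ERRFI1 differed by 0.84 (SE 0.24, 95% interval 0.29 to 1.40) and by 0.78 (SE 0.24, 95% interval 0.23 to 1.33), just outside the threshold with adjusted p of 0.054 and 0.0618. The arms do not overlap under either treatment, as in this direction for 24.5% of all clusters under vehicle and 28.4% under prednisolone. All its values lay at or below the 42.8th percentile, and its level above background is unknown. It passed under vehicle after quantile normalization (1.09, adjusted p = 0.0235), after array median centring (0.89, adjusted p = 0.0447) and with the trended and robust spread (adjusted p = 0.0465). Leaving out the first control vehicle array also brought it past the threshold under both treatments (adjusted p = 0.0357 and 0.0349), and leaving out the second did so under prednisolone (adjusted p = 0.0349). Over all settings the adjusted p ran from 0.0235 to 0.218 under vehicle and from 0.0349 to 0.319 under prednisolone.

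**Figure D3:**
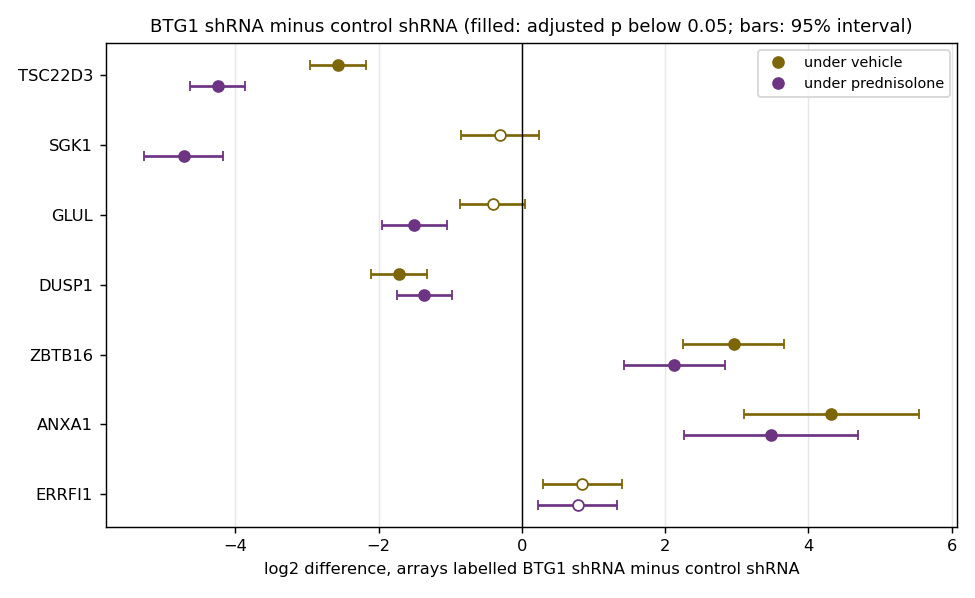
Log2 difference between arrays labelled BTG1 shRNA and control shRNA arrays (x axis) for the 7 genes (y axis), under vehicle and under prednisolone. Points are estimates from 2 arrays against 2, bars are 95% intervals and filled points passed the adjusted threshold. TSC22D3 and DUSP1 lie below 0 and ZBTB16 and ANXA1 above 0 under both treatments. SGK1 moves from -0.30 under vehicle to -4.72 under prednisolone, and its level above background is unknown in both vehicle groups.

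A list of 28 further glucocorticoid-induced genes was set beside the 7, of which 27 were measured. Like the 7, it was chosen with earlier results of these data known, so its counts are not independent support. In control cells 9 of the 27 rose and 0 fell, with a median of 0.57. Over all clusters 0.928% were called higher and 0.587% lower there. The 8 with the smallest p-values were PIK3IP1, NFKBIA, PER1, MT1X, TXNIP, DDIT4, IL6ST and SESN1. PIK3IP1, an inhibitor of PI3-kinase, rose by 3.19 (SE 0.21), and NFKBIA, which holds NF-kB in the cytoplasm, by 2.04 (SE 0.18). The clock gene PER1 rose by 1.80 (SE 0.19) and MT1X, a metal-binding metallothionein, by 2.32 (SE 0.25). TXNIP, an inhibitor of thioredoxin, rose by 2.00 (SE 0.22), and DDIT4, an inhibitor of mTOR complex 1, by 2.46 (SE 0.29). IL6ST, the shared subunit of interleukin-6 family receptors, rose by 3.36 (SE 0.41), and SESN1, a sestrin of the stress response, by 2.70 (SE 0.33). The limma adjusted p of these 8 lay between 0.00121 and 0.0115. The other gene called was FKBP5, a cochaperone of the receptor, in a cluster that also carries LOC285847 (2.70, SE 0.35, adjusted p = 0.0134); it is named after its values were seen. BCL6 had the lowest difference of the list, -0.97, and did not pass (adjusted p = 0.111). Without the second control prednisolone array 3 of the 27 passed, and with the control arrays fitted alone 1 did.

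On the arrays labelled BTG1 shRNA 0 of these 27 passed, like 0 of all clusters, and the median of the 27 was 0.15. DDIT4 (0.94) and PIK3IP1 (0.73) had the largest differences there of the 8 named. The direct test of the difference of effects called 0.134% of all clusters. Of the 27 it called 3, PIK3IP1 (-2.46), NFKBIA (-2.08) and TXNIP (-2.56), each with a limma adjusted p of 0.0441. That count was 7 with a replicate block, 1 without the first control vehicle array and 0 without any 1 of the other 7 arrays. Between the arms, 6 of the 27 were lower and 1 higher with BTG1 shRNA under vehicle, and 13 were lower and 2 higher under prednisolone. Over all clusters 6.21% were lower and 8.46% higher under vehicle, and 7.51% and 10% under prednisolone. The vehicle count of 7 was 4 with only those arrays fitted, without the first control vehicle array, and when 1 of the 2 BTG1 shRNA vehicle arrays was dropped. Of 6 measured glucocorticoid targets known from liver, 0 were called in any of the 5 comparisons. Their group means lay between 2.58 (TDO2) and 5.09 (IGFBP1), and a change near background may not show on the array. Among them were IGFBP1, an insulin-like growth factor binding protein (-0.61, SE 0.27, in control cells), and TAT, tyrosine aminotransferase (-0.29, SE 0.24).

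**Figure D4:**
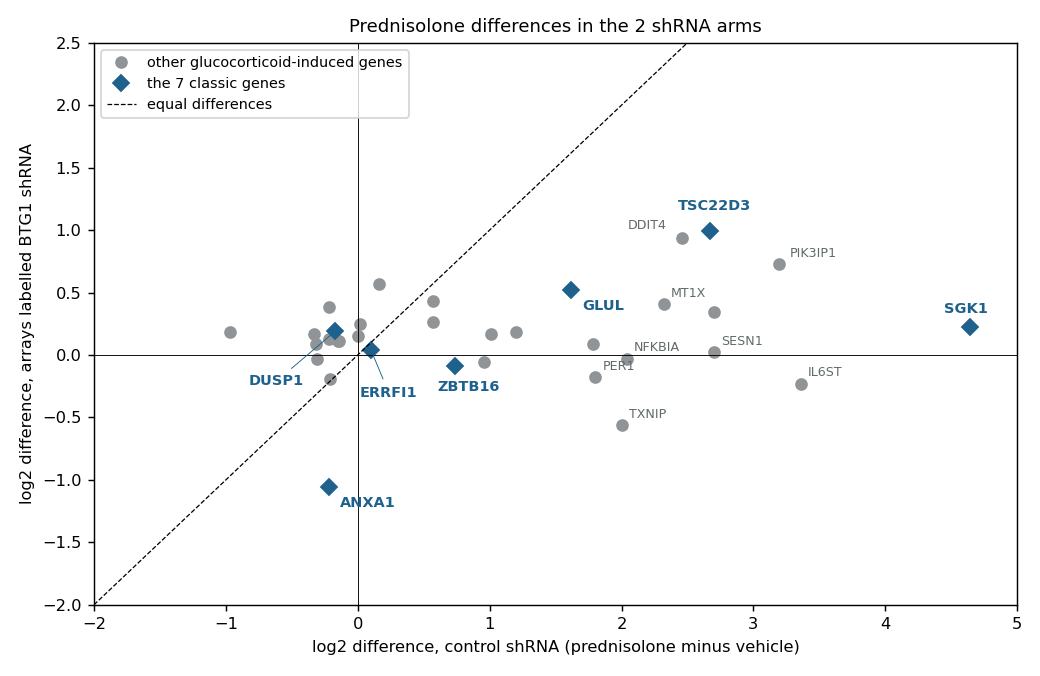
Log2 difference between prednisolone and vehicle in control shRNA cells (x axis) against the same on the arrays labelled BTG1 shRNA (y axis), for the 7 genes (diamonds) and 27 other glucocorticoid-induced genes (circles); the dashed line marks equal differences. The 2 axes share no array, and SGK1 (4.64 and 0.22), TSC22D3 (2.67 and 0.99) and GLUL (1.62 and 0.52) lie below the line. Naming these 3 by their rise in control cells favours that position. Both gene sets were chosen with earlier results of these data known.

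Relatives and partners of the 7 genes were examined for the same 5 comparisons. Over all clusters 0.928% were called higher and 0.587% lower with prednisolone in control cells. A count of 0 in a short list is near that share. On the arrays labelled BTG1 shRNA 0 of these relatives and partners were called with prednisolone, like 0 of all clusters. In the difference of effects 0 were called, against 0.134% of all clusters. Among the 3 other TSC22 family members 0 were called with prednisolone in control cells. TSC22D4 was at 0.68 (SE 0.18, adjusted p = 0.145) there, and it was lower on the arrays labelled BTG1 shRNA under both treatments (-1.04 and -1.77). TSC22D2 (0.27) and TSC22D1 (-0.24) did not pass either.

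Of 10 measured kinases and substrates around SGK1, 1 rose in control cells, NDRG1, a well-known SGK1 substrate (1.65, SE 0.18, adjusted p = 0.00662). The ubiquitin ligase NEDD4 (0.74), the transcription factor FOXO1 (0.43) and a cluster shared by the kinase gene SGK3 and a second symbol (0.48) did not pass. Between the arms FOXO1 was lower at both treatments (-1.13 and -1.25). NDRG1 (-1.03, adjusted p = 0.00588) and the SGK3 cluster (-1.50, adjusted p = 0.0245) were lower under prednisolone, where 3 of the 10 were called lower and 1 higher. Over all clusters 7.51% were called lower and 10% higher in that comparison. Among 11 phosphatases and kinases of the MAP kinase pathway other than DUSP1, 1 rose in control cells. This was DUSP10, which acts on p38 and JNK (1.20, SE 0.22, adjusted p = 0.0475). Its control vehicle mean was 3.91, where its level above background is unknown, so the size is uncertain. DUSP7 (-0.94), DUSP2 (-1.02) and DUSP4 (-0.50) did not pass.

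Of 10 measured BTB zinc finger factors and corepressors around ZBTB16, 0 were called with prednisolone in control cells. BCL6, a germinal centre repressor, differed between the arms by -3.32 under vehicle and -2.18 under prednisolone, and the deacetylase HDAC4 by 1.23 and 0.89, all called. Of the 10, 2 were called lower and 2 higher under vehicle, and 1 lower and 2 higher under prednisolone. The shares over all clusters were 6.21% lower and 8.46% higher under vehicle, and 7.51% and 10% under prednisolone. ZBTB7A and PATZ1 were not called in any of the 5 comparisons. For GLUL, 10 genes of glutamine metabolism and transport were measured and 0 were called in control cells. CAD, which uses glutamine for pyrimidine synthesis, was at -0.91 (SE 0.18, adjusted p = 0.06), GOT1 at 0.74, and the glutamine transporters SLC38A1 and SLC38A2 at 0.79 and 0.63. GLUL itself was called, and a count of 0 among 10 is near the share over all clusters.

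Of 13 annexins, formyl peptide receptors and partners around ANXA1, 0 were called with prednisolone in control cells. ANXA7 was at 0.69, ANXA2 at -0.36, ANXA5 at 0.76 and FPR3 at -0.24. Between the arms ANXA2 differed by -2.05 under vehicle and -1.65 under prednisolone, opposite to ANXA1, and ANXA5 by -2.05 under prednisolone, all called. Of the 13, 2 were called lower under vehicle and 3 under prednisolone, and 0 higher. Over all clusters 6.21% and 7.51% were called lower. Of 10 ErbB receptors, ligands and adaptors around ERRFI1, 1 rose in control cells, the ligand TGFA (1.99, SE 0.23, adjusted p = 0.00914). The control vehicle mean of TGFA was 4.12, where its level above background is unknown, so the size is uncertain. The ligand HBEGF (-0.93, adjusted p = 0.0504) and the receptor ERBB2 (-1.23, adjusted p = 0.0554) lay just outside the threshold, and ERBB4 was at -0.29.

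The clusters most like each gene over the 8 arrays were found by the root mean square difference of levels centred on each cluster's own mean, among clusters with 1 symbol. SGK1 was closest to P2RY14, a nucleotide sugar receptor (0.28), and RASSF4 (0.48), against its own root mean square deviation of 2.07. TSC22D3 was closest to PAG1, a membrane adaptor (0.44), and the gasdermin GSDME (0.49), with its own deviation at 1.98. GLUL was closest to MAP7 (0.16) and the semaphorin receptor PLXNA1 (0.17), with its own deviation at 0.78. All 6 of these clusters also rose with prednisolone in control cells, which the measure of likeness favours.

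DUSP1 was closest to VSIG10 (0.08) and ZNF70 (0.13), both lower on the arrays labelled BTG1 shRNA, which the measure of likeness favours. ZBTB16 was closest to PLCG1, a phospholipase of antigen receptor signalling (0.26), and TSPAN5 (0.29). ANXA1 was closest to HSPA4L and the desmosomal cadherin DSG2 (0.39 each), and ERRFI1 to MTUS1 (0.09) and WDR54 (0.10). Among the other 6 genes TSC22D3 was nearest to SGK1 (0.89, against own deviations of 1.98 and 2.07) and farthest from ANXA1 (3.90). Genes whose level varies less give smaller distances, so these values rank likeness for 1 gene at a time.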

How the data were processed

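Total RNA was labelled with biotin and hybridised to 8 Affymetrix Human Exon arrays, and probes were summarised over core meta-probe sets built on hg18, per the labels. The authors' processing, per the submitters' processing notes, used RMA and Partek, whose versions and settings are not stated there. The deposited values are log2 levels that lost most decimal points: 153 of 143048 kept one. Each was restored behind digit 1, or behind digit 2 for the 2831 values that began with 1. The tests stayed as planned on these restored log2 values. No other normalization or filter was applied, and array number limits the precision.

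A model of 4 group means was fitted to all 17881 clusters with limma 3.58.1 in R 4.3.3 (4 residual and 3.51 prior degrees of freedom), with Benjamini-Hochberg adjustment over all clusters and a threshold of 0.05. Intervals are 95% intervals of that fit. The code was tested on simulated data. From each list up to 4 genes (8 for glucocorticoid-induced genes) with the smallest p in the control prednisolone comparison are named, and 2 most alike clusters per gene. BTG1 is given through a cluster with 2 symbols. The members and lists were chosen with earlier results of these data known. Promoter sequences are RefSeq's on GRCh38.p14, which is not the array's build, and other positions were not used here. Alternatives were 2 scalings, a replicate block, a level filter, another spread model, only the arrays compared, and leaving out each array.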

Additional observations from a re-analysis of the deposited data

Results flagged for a closer look

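SGK1 responded differently to prednisolone in the 2 arms by a direct test of the difference. The effect on the arrays labelled BTG1 shRNA minus that in control cells was -4.42 (SE 0.33, limma adjusted p = 0.00862), from 4.64 in control cells and 0.22 on the arrays labelled BTG1 shRNA. The call ended in 5 of 12 alternative settings (adjusted p = 0.0589 to 0.0823), each leaving out 1 array, and 0 of all clusters passed in those 5 fits. Both prednisolone arrays of control cells, at 8.48 and 9.07, lay above all 6 others. On those 6 the level of SGK1 above background is unknown, which leaves the size of the difference uncertain. NR3C1 was lower, B-lineage markers lower and T-lineage markers higher on the arrays labelled BTG1 shRNA, and their part in the difference cannot be told apart from that of the shRNA.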

How the results depend on the processing

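Over all 5 comparisons the 7 genes gave 468 values under alternative settings, of which 451 kept their direction (or were uncalled) and side of the threshold, 7 lost a call, 10 gained one and 0 called values reversed. In control cells the calls of SGK1 and TSC22D3 held in every setting run for them, with differences of 4.34 to 4.93 and 2.55 to 2.80; GLUL ranged from 1.48 to 1.75. Clusters above the median level leave out SGK1, ANXA1 and ERRFI1; of the 4 remaining genes 0 were then called in the difference of effects. There, 2 of the 7 genes passed after quantile normalization and with a replicate block, and 0 to 1 when 1 array was left out.

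All clusters called with prednisolone in control cells numbered 271, 16 on the control arrays alone, 755 with the block and 40 to 770 leaving out 1 array (40 without the second control prednisolone array, 770 without the second control vehicle array). For the shRNA difference under vehicle they numbered 2623, 4553 with the block and 1289 to 5958 leaving out 1 array (5958, with more lower than higher, without the second control vehicle array). Under prednisolone they numbered 3134, and 1746 to 3891 leaving out 1 array. For the difference of effects they numbered 24 (5 higher and 19 lower), 36 after quantile normalization (12 and 24), 14 after median centring, 39 with the trended and robust spread, 96 with the block and 0 to 24 leaving out 1 array. Replicate numbers are shared across groups, but no label says that they mark a shared culture or day; deviations of same-numbered arrays correlated between 0.01 and 0.59 over clusters. With the block, ERRFI1 passed in both shRNA comparisons (adjusted p = 0.0377 and 0.0486) and TSC22D3 in the difference of effects (adjusted p = 0.0323).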
